A study of Saccharomyces cerevisiae with 44 samples.

Results

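The 42 genes described here build the cell wall of budding yeast (Saccharomyces cerevisiae) or sense its state. They were taken by name, with earlier results of these data known, from a read count table of 7127 features. All 42 passed the filter on low counts. They comprise wall stress sensors, the Rho1 module, the Slt2 MAP kinase cascade, chitin synthases, glucan synthesis genes, wall-modifying enzymes, Pir proteins, other mannoproteins and 1 mannosyltransferase gene. The yeast wall is a network of glucans and chitin to which mannoproteins are bound. Sensors of the Wsc and Mid2 families signal through the exchange factor Rom2, the GTPase Rho1 and the kinase Pkc1 to the kinases Bck1, Mkk1, Mkk2 and Slt2, and Slt2 acts on the transcription factor Rlm1. The mating pheromone alpha-factor binds its receptor on MATa cells, the transcription factor Ste12 turns on pheromone-responsive genes, and cells stop in G1 and grow a mating projection, for which the wall is remodelled. Kar4 is a partner of Ste12 at a subset of its target genes.

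RNA was measured by sequencing total RNA after removal of rRNA. All strains were MATa and lacked CLN1, CLN2 and CLN3 (the G1 cyclin genes) as well as BAR1, whose product degrades alpha-factor; they carried CLN3 under the GAL promoter at LEU2 and the markers ade1, his2, trp1 and ura3. Cultures grew at 30 °C in galactose medium and were held in glucose medium for 3 h, which stopped them in G1. They were then given 20 µM alpha-factor for 60 min, or were collected at the end of the arrest (0 min) without it. The groups of batches 1 and 2 were the kar4 deletion (kar4::KanMX) with alpha-factor and untreated, the ste12 deletion (ste12::KanMX) with alpha-factor and untreated, and WT with alpha-factor and untreated, each with 4 libraries, 2 per batch. Batch 3 held the ime4 deletion (ime4::KanMX) and WT, each with alpha-factor and untreated; its 16 columns were counted as 8 libraries, 2 per group, because in each group column 1 differed from column 3, and column 2 from column 4, by less than the sampling noise. Batch 4 held WT after 60 min with alpha-factor and WT after 60 min without it, 2 libraries each. For batch 3 the labels give no time for the untreated cells. Each deletion is represented by 1 strain. The labels do not say that replicates came from separate cultures, so the p-values measure only the spread between these libraries, which may be technical.

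Libraries held 4248572 to 22586646 counts, and the 42 genes took 2.55% to 4.22% of them. The lowest count of any of the 42 genes in a library was 62. KAR4 had 0 to 2 counts in kar4 deletion libraries, STE12 had 3 to 64 in ste12 deletion libraries and IME4 had 3 to 8 in ime4 deletion libraries, against at least 228 (KAR4) and 919 (STE12) counts in WT libraries of batches 1 and 2 and 29 (IME4) in WT libraries of batch 3. The STE12 counts were 23 to 64 in the ste12 deletion libraries of batch 2 and 3 to 10 in those of batch 1. FUS1, a cell fusion gene used as a check of the pheromone response, averaged 18.8 ± 3.05 CPM in alpha-factor ste12 deletion libraries and 831 ± 83.8 CPM in alpha-factor WT libraries (SD, n = 4 each). The 6 a-cell marker genes summed to 2792 to 6189 CPM in libraries with STE12, and to 524 to 873 CPM in ste12 deletion libraries. The 4 alpha-cell genes summed to 3257 to 3592 CPM in alpha-factor kar4 deletion libraries, against 171 to 254 CPM in alpha-factor WT libraries, with SAG1 at 2951 to 3228 CPM and the receptor gene STE3 at 10.4 to 16.4 CPM in the kar4 deletion. Their part in the results was not tested. The 8 S and M phase genes summed to 312 to 323 CPM in alpha-factor kar4 deletion libraries, 178 to 252 CPM in alpha-factor ste12 deletion libraries and 229 to 258 CPM in alpha-factor WT libraries.

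Gene positions are those of the R64 (sacCer3) annotation. Levels are given as CPM, read counts scaled to a common library total, on the scale of edgeR's TMM method, which sets libraries level at the bulk of their features, and responses as the log2 fold change of alpha-factor against untreated libraries. A gene is called where edgeR's quasi-likelihood test, with batch as a term, gave a Benjamini-Hochberg adjusted p under 0.05 over all features tested. In these bulk libraries, fewer cells expressing a gene and less RNA per cell cannot be told apart. The untreated libraries of batches 1 and 2 were collected at the end of the arrest, earlier than the alpha-factor libraries. Responses in these batches therefore combine alpha-factor with a later collection, and the parts of each cannot be told apart within them. In WT of batches 1 and 2, 21 of the 42 wall genes rose and 13 fell with alpha-factor, so that 34 were called (81%), against 59% of all 6161 features tested (29% higher and 30% lower). By at least 2-fold, 13 wall genes were higher and 7 lower, against 7.68% and 2.71% of all features. The median log2 fold change was 0.150 for the wall genes and -0.002 for all features, and the median size of the change, with its sign left out, was 0.96 and 0.31. The 4 alpha-factor and 4 untreated WT libraries did not overlap for 31 of the 42 genes, against 44% of all features. All 34 calls had the same sign in both batches, and 29 were made in batch 1 alone and 31 in batch 2 alone. With libraries scaled by their totals in place of TMM, the median of all features was -0.17, and 19 wall genes were higher and 17 lower; values below are relative to the TMM scale.

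In the ste12 deletion, 18 of the 42 genes were called (32.2% of all features), 17 of them higher (17.6%) and 1 lower (14.6%); 3 were higher and 0 lower by at least 2-fold (1.3% and 0.487%). The response differed from that of WT for 30 genes (35.9% of all features): 16 responses were less positive in the ste12 deletion (17.6%) and 14 more positive (18.3%). By at least 2-fold, 9 differences were negative (4.46%) and 6 positive (1.69%). The 30 genes comprised 16 of the 21 genes that rose in WT, all with a smaller response (54.5% of all features that rose in WT had one), and 12 of the 13 genes that fell in WT, all with a positive difference (51.7% of all features that fell). The WT libraries enter both the WT call and the difference, so the sign of the difference is not independent of that call. In the kar4 deletion, 34 genes were called (65.9% of all features), 23 higher (33%) and 11 lower (32.8%), with 14 and 4 of them changed by at least 2-fold (9.63% and 6.36%), and all 21 genes that rose in WT rose there too (83.2% of all features that rose in WT). The kar4 deletion response differed from that of WT for 7 genes, against 18.9% of all features: 6 differences were positive (8.72%) and 1 was negative (10.2%), and 1 was at least 2-fold (1.62% positive and 1.36% negative of all features). Within batch 1 alone, 14 genes were called for the ste12 deletion response, 26 for its difference from WT, 32 for the kar4 deletion response and 5 for its difference from WT; batch 2 alone gave 14, 30, 33 and 6. With library totals, the kar4 deletion response split into 20 higher and 16 lower, and its difference from WT into 5 positive and 2 negative. Both differences use the same WT libraries.

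**Figure D1:**
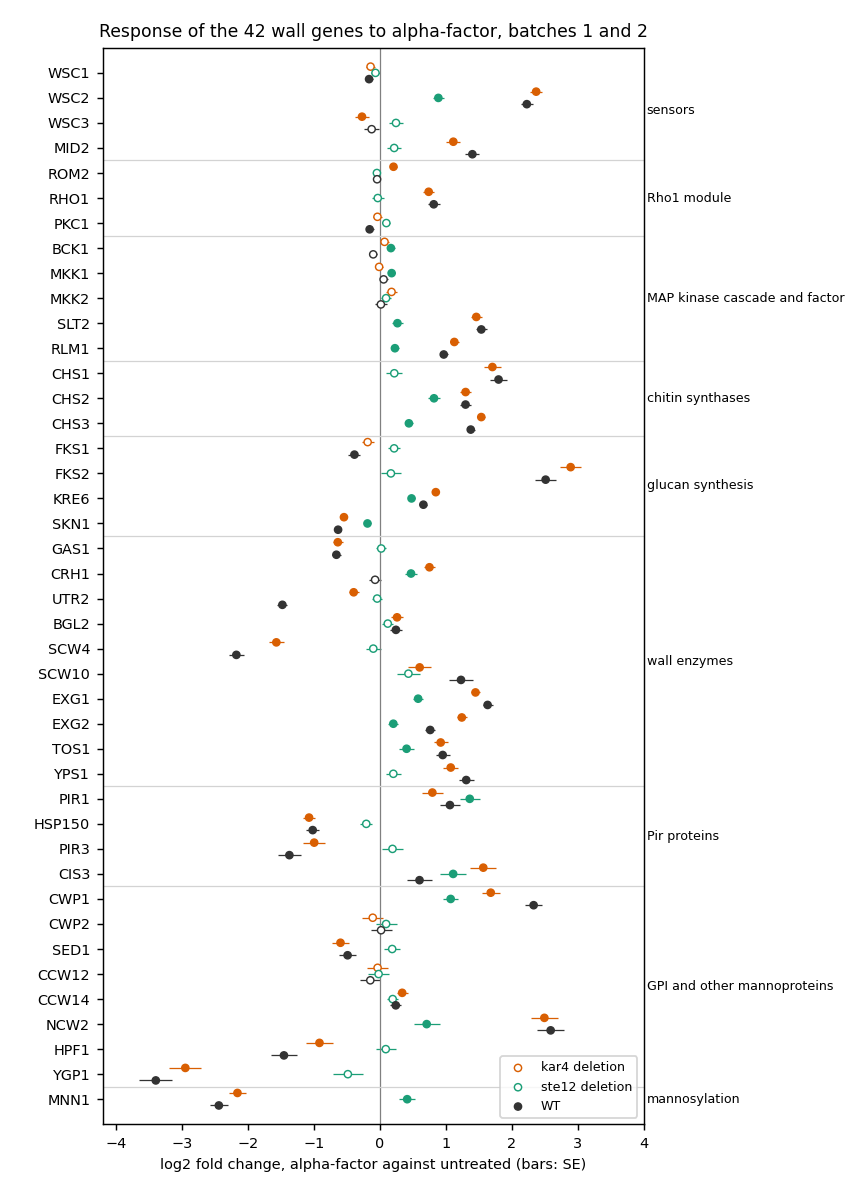
Log2 fold change (x axis) of each of the 42 wall genes (rows, grouped by role) for alpha-factor against untreated libraries in the kar4 deletion, the ste12 deletion and WT, 4 libraries per group; bars are standard errors and filled points were called. Responses differed from WT at the threshold for 7 genes in the kar4 deletion and 30 in the ste12 deletion, whose points lie between -0.48 and 1.36.

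Of the 4 sensor genes, WSC2 and MID2 rose in WT and responded less in the ste12 deletion. WSC2 (YNL283C, chrXIV:105184-106695), a sensor of the Wsc family, had 89.7, 111, 112 and 123 CPM in alpha-factor ste12 deletion libraries, against 52.5, 51.1, 65.2 and 67.7 CPM in untreated ste12 deletion libraries. It had 913, 834, 898 and 992 CPM in alpha-factor WT libraries, against 161, 187, 223 and 207 CPM in untreated WT libraries. The groups of each strain did not overlap, and the ste12 deletion libraries lay below all WT libraries under both conditions. The WSC2 response was 0.89 ± 0.09 (adjusted p = 2.14e-07) in the ste12 deletion and 2.23 ± 0.09 (adjusted p = 6.09e-16) in WT (log2, SE), a difference of -1.34 ± 0.12 (adjusted p = 9.11e-09), and it was 2.37 in the kar4 deletion, where WSC2 had 815 to 883 CPM with alpha-factor, against 143 to 206 CPM untreated. Without alpha-factor, WSC2 was also lower in the ste12 deletion than in WT, by a log2 fold change of -1.72 ± 0.09, and with alpha-factor the difference was -3.06 ± 0.09 (adjusted p = 1.28e-18). MID2 (YLR332W, chrXII:790676-791806), which encodes a wall sensor needed for survival in pheromone, had 305, 276, 355 and 383 CPM in alpha-factor ste12 deletion libraries, against 277, 208, 302 and 350.1 CPM in untreated ste12 deletion libraries. It had 1298, 1063, 1042 and 1167 CPM in alpha-factor WT libraries, against 407, 427, 449.5 and 451 CPM in untreated WT libraries. All 4 alpha-factor WT libraries were above every other one of these 16, and the difference in response was -1.19 ± 0.15 (adjusted p = 1.24e-06). MID2 overlaps the open reading frame YLR331C on the other strand, and its reads are certain only if strand was used in counting, which the sources used here do not give. WSC1 (YOR008C) fell slightly in WT (-0.16 ± 0.07, adjusted p = 0.0379), a call that was lost in each batch alone and on leaving out any 1 of 6 of the 8 libraries (-0.169 to -0.142), and WSC3 (-0.12) was not called.

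Below the sensors, RHO1, SLT2 and RLM1 (YPL089C) rose in WT, PKC1 (YBL105C) fell slightly, and ROM2 (YLR371W), BCK1 (YJL095W), MKK1 (YOR231W) and MKK2 (YPL140C) were not called. RHO1 (YPR165W, chrXVI:875368-875997), the GTPase gene, had 200.1, 190.4, 223 and 230 CPM in alpha-factor ste12 deletion libraries, against 228, 204, 217 and 215 CPM in untreated ste12 deletion libraries. It had 549, 505, 396 and 418 CPM in alpha-factor WT libraries, against 301, 280.3, 244 and 233 CPM in untreated WT libraries. Its WT alpha-factor libraries were all above its WT untreated ones, and the response was -0.03 ± 0.09 in the ste12 deletion (not called) against 0.82 ± 0.09 (adjusted p = 3.9e-08) in WT, a difference of -0.85 ± 0.12 (adjusted p = 1.15e-05). SLT2 (YHR030C, chrVIII:168890-170344), the MAP kinase gene, had 255, 267, 291 and 302 CPM in alpha-factor ste12 deletion libraries, against 221, 209.8, 240.3 and 256 CPM in untreated ste12 deletion libraries. It had 610.2, 581, 536 and 541 CPM in alpha-factor WT libraries, against 182, 195, 225 and 179 CPM in untreated WT libraries. The 4 alpha-factor WT libraries had at least 536 CPM, and no ste12 deletion library had more than 302 CPM. The SLT2 response was 0.27 ± 0.08 (adjusted p = 0.0149) in the ste12 deletion against 1.54 ± 0.08 (adjusted p = 1.95e-13) in WT, a difference of -1.27 ± 0.12 (adjusted p = 8.33e-09); the small rise in the ste12 deletion was not called in batch 2 alone (0.26, adjusted p = 0.0735) or without alpha-factor replicate 4, untreated replicate 1 or untreated replicate 2 (0.226 to 0.245). RLM1, the gene of the transcription factor that Slt2 acts on, responded by 0.23 ± 0.06 (adjusted p = 0.00741) in the ste12 deletion against 0.97 ± 0.06 (adjusted p = 6.32e-12) in WT, with a difference of -0.74 ± 0.09 (adjusted p = 6.14e-07). The rise in the ste12 deletion was not called in batch 2 alone (0.173, adjusted p = 0.0907). The kar4 deletion responses of SLT2 and RLM1 were 1.46 and 1.13, and neither differed from WT at the threshold. PKC1, BCK1, MKK1, MKK2 and ROM2 had WT responses between -0.15 and 0.06. The PKC1 call (adjusted p = 0.0385) was lost in each batch alone (-0.177 and -0.138) and on leaving out any 1 of 6 of the 8 libraries (-0.163 to -0.136).

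**Figure D2:**
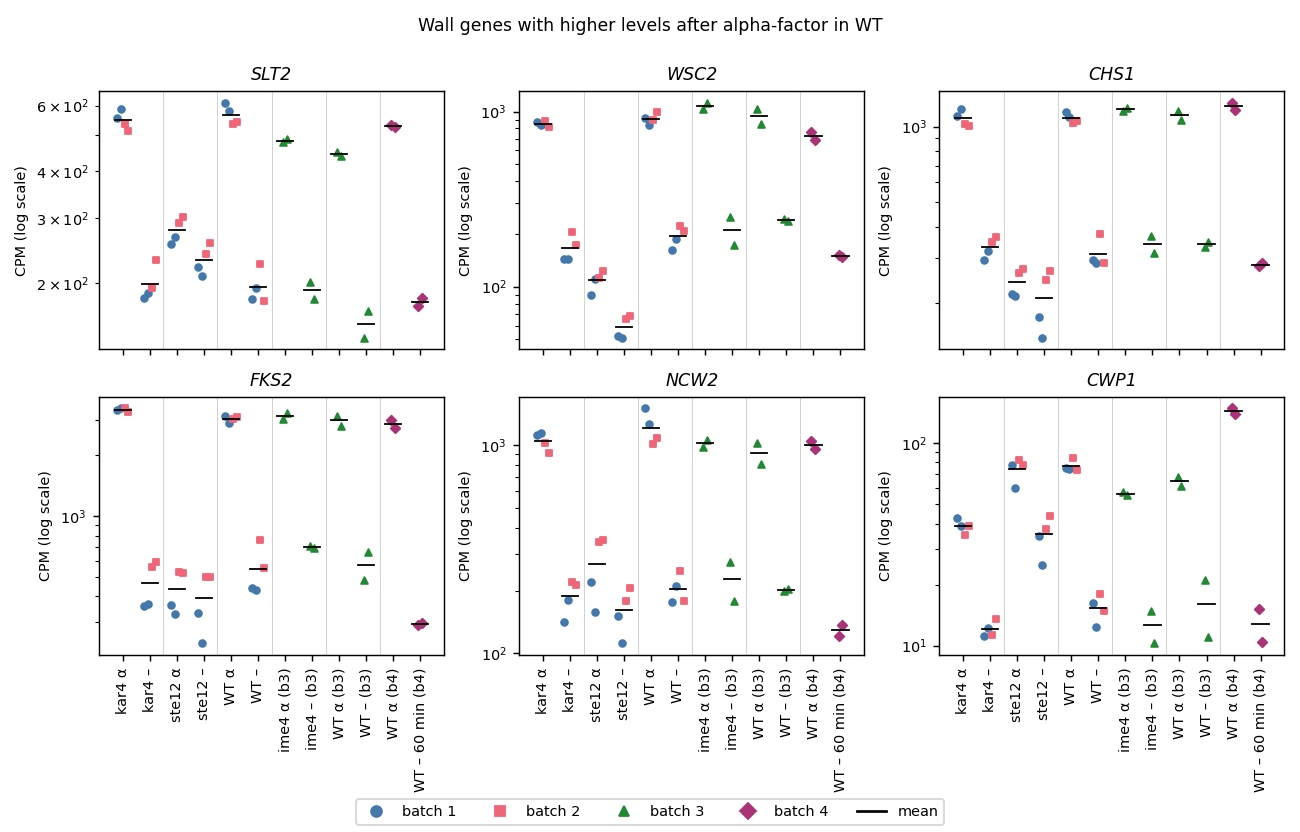
Level in CPM (log scale) of 6 wall genes that rose in WT, in every library of the 12 groups, with alpha-factor (α) left of untreated (–) and batches marked by symbol; black lines are means. The WT, kar4 deletion and ime4 deletion libraries with alpha-factor stand above their untreated ones for all 6 genes, and the ste12 deletion libraries with alpha-factor stand below those of WT for all but CWP1.

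The 3 chitin synthase genes all rose in WT (29% of all features) and in the kar4 deletion (33%). All 3 responded less in the ste12 deletion (17.6% of all features had a less positive response). CHS1 (YNL192W, chrXIV:276502-279897), whose product repairs chitin at cell separation, had 216, 213, 263 and 273 CPM in alpha-factor ste12 deletion libraries, against 176, 145, 245 and 268 CPM in untreated ste12 deletion libraries. It had 1144, 1092, 1033 and 1051 CPM in alpha-factor WT libraries, against 296, 288, 375 and 288 CPM in untreated WT libraries. The ste12 deletion libraries overlapped between conditions over both batches together, though not within batch 1, and the WT libraries did not overlap. The CHS1 response was 0.22 ± 0.12 (adjusted p = 0.175) in the ste12 deletion (not called) against 1.80 ± 0.13 (adjusted p = 2.22e-11) in WT, and the difference was -1.58 ± 0.17 (adjusted p = 1.89e-07). The ste12 deletion response was called in batch 1 alone (0.406, adjusted p = 0.0119) and not in batch 2 alone (0.065). In the kar4 deletion CHS1 had 1004 to 1177 CPM with alpha-factor, against 296 to 365 CPM untreated. CHS3 (YBR023C, chrII:284428-287925), which makes most of the wall chitin, had 303, 358, 317 and 327 CPM in alpha-factor ste12 deletion libraries, against 226, 234, 249.9 and 252 CPM in untreated ste12 deletion libraries. It had 795, 771, 805 and 829 CPM in alpha-factor WT libraries, against 294, 307, 320.3 and 308 CPM in untreated WT libraries. Both strains separated by condition, with a response of 0.44 ± 0.06 (adjusted p = 1.1e-05) in the ste12 deletion against 1.38 ± 0.06 (adjusted p = 5.23e-15) in WT and a difference of -0.94 ± 0.09 (adjusted p = 9.14e-09). CHS2 (YBR038W, chrII:311898-314789), which makes the septum, had low levels, with 51.8, 52.5, 43.7 and 48 CPM in alpha-factor ste12 deletion libraries, against 24.8, 26.6, 29.7 and 30.3 CPM in untreated ste12 deletion libraries. It had 63.1, 69.7, 80.6 and 74 CPM in alpha-factor WT libraries, against 26.8, 28, 32.2 and 29.6 CPM in untreated WT libraries. CHS2 was the chitin synthase gene with the smallest difference (-0.48 ± 0.12, adjusted p = 0.00349), which was not called in batch 1 alone (-0.263, adjusted p = 0.245) or with library totals in place of TMM (-0.336, adjusted p = 0.0544).

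CHS3 is 1 of 3 wall genes, with CRH1 and EXG2, whose promoter window holds TGAAACA, the pheromone response element bound by Ste12, on either strand. The window runs from 250 bases before to 50 bases after the start codon in the RefSeq R64 genome (sacCer3), so it covers part of the coding sequence and of the leader. The same 7 letters were found in 450 of 6001 protein-coding windows (7.5%), and 3 of 42 wall genes is 7.14%. The Rlm1 site, searched as CTA and TAG with any 4 letters between them, was in 4 of 42 windows (9.52%, against 5.57% of all), and CNCGAAA, a Swi4 site, was in 7 of 42 (16.7%, against 13.8% of all). The windows of SLT2, FKS2, CHS1 and WSC2 held none of the 3 patterns. The windows of CHS3, CRH1 and EXG2 are shown because they hold the Ste12 element, and that of UTR2 because its response differed most between the kar4 deletion and WT; capitals mark TGAAACA or its reverse complement and CNCGAAA. The marked motifs do not overlap in the windows shown.
CHS3 (chrII:287876-288175, minus strand): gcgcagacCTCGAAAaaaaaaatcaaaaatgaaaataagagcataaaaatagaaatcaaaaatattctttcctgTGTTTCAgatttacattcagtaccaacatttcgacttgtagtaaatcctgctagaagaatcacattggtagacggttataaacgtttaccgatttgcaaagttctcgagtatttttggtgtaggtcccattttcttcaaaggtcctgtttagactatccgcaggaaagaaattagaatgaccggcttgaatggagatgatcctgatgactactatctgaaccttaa
CRH1 (chrVII:878143-878442, minus strand): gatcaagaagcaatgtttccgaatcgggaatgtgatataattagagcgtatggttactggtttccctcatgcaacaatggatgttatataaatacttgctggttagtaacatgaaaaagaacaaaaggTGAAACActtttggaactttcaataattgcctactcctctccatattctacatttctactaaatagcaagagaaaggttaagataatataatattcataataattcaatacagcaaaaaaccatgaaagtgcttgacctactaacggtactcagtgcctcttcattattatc
EXG2 (chrIV:979160-979459, minus strand): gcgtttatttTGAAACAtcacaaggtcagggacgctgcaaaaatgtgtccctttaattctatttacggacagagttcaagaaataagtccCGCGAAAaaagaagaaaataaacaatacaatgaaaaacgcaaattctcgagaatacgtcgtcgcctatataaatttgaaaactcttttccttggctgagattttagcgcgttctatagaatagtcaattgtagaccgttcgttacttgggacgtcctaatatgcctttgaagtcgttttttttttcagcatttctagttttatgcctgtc
UTR2 (chrV:77803-78102, plus strand): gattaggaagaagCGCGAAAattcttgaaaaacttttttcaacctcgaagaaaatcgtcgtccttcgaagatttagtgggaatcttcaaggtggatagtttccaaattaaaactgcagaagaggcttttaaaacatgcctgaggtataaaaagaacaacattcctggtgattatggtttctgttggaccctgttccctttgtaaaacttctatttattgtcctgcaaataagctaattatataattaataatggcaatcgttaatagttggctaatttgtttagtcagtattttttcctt
These matches are a description of the letters and not of binding.

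Among the glucan synthesis genes, the paralogs FKS1 and FKS2 (also GSC2), which encode alternative catalytic subunits of glucan synthase, moved in opposite directions in WT. FKS2 (YGR032W, chrVII:548264-553951) had 361, 328, 528 and 525 CPM in alpha-factor ste12 deletion libraries, against 332, 235, 499.8 and 500 CPM in untreated ste12 deletion libraries. It had 3347, 3415, 3416 and 3257 CPM in alpha-factor kar4 deletion libraries, against 360.1, 368, 557 and 589 CPM in untreated kar4 deletion libraries. It had 3126, 2892, 3016 and 3096 CPM in alpha-factor WT libraries, against 438, 429, 765 and 556 CPM in untreated WT libraries. Alpha-factor libraries of the kar4 deletion and WT were all at 2892 CPM or more, and no ste12 deletion library was above 528 CPM. The FKS2 response was 2.89 ± 0.16 (adjusted p = 2.11e-13) in the kar4 deletion, 0.17 ± 0.15 (adjusted p = 0.407) in the ste12 deletion and 2.52 ± 0.16 (adjusted p = 3.11e-12) in WT, and the ste12 deletion differed from WT by -2.35 ± 0.21 (adjusted p = 8.77e-09). FKS1 (YLR342W, chrXII:809997-815627) had 3768, 3759, 3714 and 3839 CPM in alpha-factor ste12 deletion libraries, against 3127, 3383, 3237 and 3225 CPM in untreated ste12 deletion libraries. It had 2743, 2616, 2577 and 2714 CPM in alpha-factor WT libraries, against 4005, 3496, 3306 and 3117 CPM in untreated WT libraries. The alpha-factor libraries were above the untreated ones in the ste12 deletion and below them in WT. FKS1 responded by 0.22 ± 0.09 (adjusted p = 0.0696) in the ste12 deletion (not called) and by -0.39 ± 0.09 (adjusted p = 0.000876) in WT, with a difference of 0.60 ± 0.13 (adjusted p = 0.000779) that was not called in batch 1 alone (0.688, adjusted p = 0.0571).

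Counted per kb of coding length, FKS2 made up 54.7, 54.5, 54.1 and 55.3% of the FKS1 and FKS2 transcripts in alpha-factor kar4 deletion libraries, against 9.27, 11.5, 15.1 and 15.6% in untreated ones. In the ste12 deletion the FKS2 share was 8.66, 7.96, 12.3 and 11.9% with alpha-factor, against 9.5, 6.43, 13.3 and 13.3% untreated. In WT it was 53, 52.3, 53.7 and 53% with alpha-factor, against 9.76, 10.8, 18.6 and 15% untreated. With alpha-factor the mean share was thus 54.6% ± 0.5 in the kar4 deletion, 10.2% ± 2.21 in the ste12 deletion and 53% ± 0.572 in WT (SD, n = 4 each), and the ste12 deletion range did not overlap either of the others. KRE6 (YPR159W), which encodes a protein of branched glucan synthesis, rose by 0.66 ± 0.05 in WT, and its paralog SKN1 (YGR143W) had a response of -0.63 ± 0.05. Both were called in the ste12 deletion too (0.48 and -0.19), where SKN1 was not called in batch 1 alone (-0.100) or with batch left out of the fit (-0.178).

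**Figure D3:**
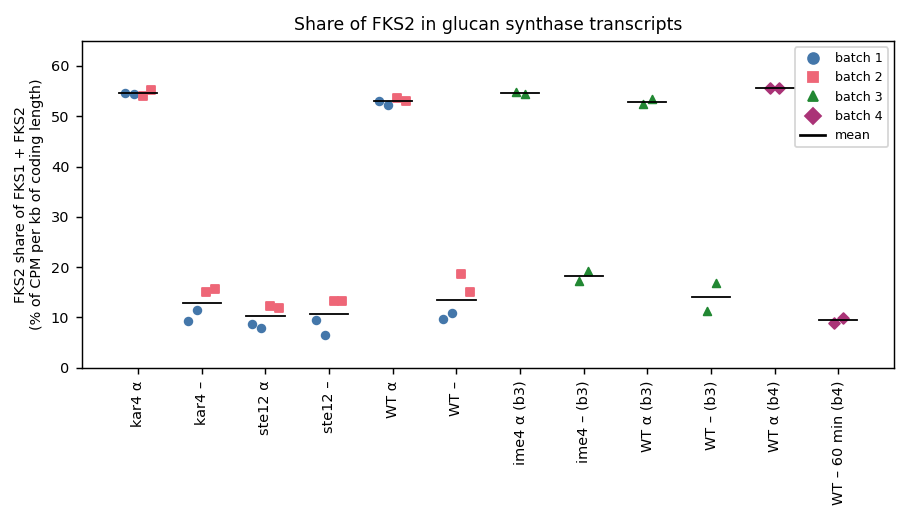
FKS2 as a percent of FKS1 plus FKS2 (y axis, CPM per kb of coding length) in every library, by group, with alpha-factor (α) left of untreated (–); black lines are means. All alpha-factor libraries of the kar4 deletion, the ime4 deletion and WT lie between 52.3% and 55.6%, and all other libraries between 6.43% and 19.3%.

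Of the 10 wall enzyme genes, 6 rose (29% of all features) and 3 fell (30%) in WT. The response differed in the ste12 deletion for 9 of the 10 (35.9% of all features). SCW4 (YGR279C, chrVII:1048798-1049958), a glucanase-like wall protein gene, had 1336, 1173, 1417 and 1568 CPM in alpha-factor ste12 deletion libraries, against 1358, 1446, 1547 and 1525 CPM in untreated ste12 deletion libraries. It had 599, 608, 711 and 598 CPM in alpha-factor kar4 deletion libraries, against 2028, 1652, 1893 and 1898 CPM in untreated kar4 deletion libraries. It had 441, 510.5, 566 and 615 CPM in alpha-factor WT libraries, against 2838, 2558, 2192 and 1995 CPM in untreated WT libraries. Alpha-factor libraries of WT were all below the lowest untreated one. Those of the ste12 deletion overlapped with its untreated ones over both batches together and within batch 2, and lay below them within batch 1. SCW4 responded by -1.57 ± 0.12 (adjusted p = 3.13e-11) in the kar4 deletion, -0.10 ± 0.11 (adjusted p = 0.527) in the ste12 deletion (not called) and -2.18 ± 0.12 (adjusted p = 1.95e-13) in WT. The differences from WT were 0.61 ± 0.16 (adjusted p = 0.0084) for the kar4 deletion, not called in batch 2 alone (0.30, adjusted p = 0.207), and 2.08 ± 0.16 (adjusted p = 4.74e-10) for the ste12 deletion. SCW10 (YMR305C, chrXIII:879063-880232), its paralog, moved the other way: it had 801, 583, 1005 and 1031 CPM in alpha-factor ste12 deletion libraries, against 579, 454, 758 and 739 CPM in untreated ste12 deletion libraries. It had 4009, 3308, 2508 and 3016 CPM in alpha-factor WT libraries, against 1647, 1386, 1282 and 1159 CPM in untreated WT libraries. SCW10 was higher with alpha-factor in every WT library, by 1.23 ± 0.18 (adjusted p = 2.72e-06), and its level in the ste12 deletion was below that in WT under both conditions (-1.92 with alpha-factor, -1.12 untreated). Its ste12 deletion response was not called, except in batch 2 alone (0.445, adjusted p = 0.00934). In the kar4 deletion SCW10 rose in each batch alone (0.778 and 0.425). There its response difference from WT was not called, except in batch 2 alone (-0.753, adjusted p = 0.00445). With alpha-factor, the kar4 deletion was below WT in each batch alone (-0.862 and -0.637).

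UTR2 and CRH1 encode related enzymes that link chitin to glucan, and both responded differently from WT in each deletion. UTR2 (YEL040W, chrV:78053-79456) had 557, 581, 558 and 504 CPM in alpha-factor kar4 deletion libraries, against 737, 668, 756 and 733 CPM in untreated kar4 deletion libraries. It had 699, 702, 642 and 664 CPM in alpha-factor ste12 deletion libraries, against 691, 767, 664 and 663 CPM in untreated ste12 deletion libraries. It had 276, 286, 297 and 315 CPM in alpha-factor WT libraries, against 934, 864, 788 and 701 CPM in untreated WT libraries. The WT libraries with alpha-factor, at 276 to 315 CPM, lay below every library of both deletions, where UTR2 had at least 504 CPM. The UTR2 response was -0.40 ± 0.07 (adjusted p = 6.05e-05) in the kar4 deletion, -0.04 ± 0.07 (adjusted p = 0.704) in the ste12 deletion (not called) and -1.48 ± 0.08 (adjusted p = 8.13e-14) in WT, and the differences from WT were 1.08 ± 0.11 (adjusted p = 7.01e-08) and 1.44 ± 0.11 (adjusted p = 1.98e-10). CRH1 (YGR189C, chrVII:876669-878192) had 1293, 1324, 1363 and 1237 CPM in alpha-factor kar4 deletion libraries, against 708, 670.4, 849.6 and 891 CPM in untreated kar4 deletion libraries. It had 1413, 1387, 1615 and 1741 CPM in alpha-factor ste12 deletion libraries, against 1037, 997, 1166 and 1231 CPM in untreated ste12 deletion libraries. It had 1019, 863, 965 and 1022 CPM in alpha-factor WT libraries, against 1114, 897, 1077 and 975 CPM in untreated WT libraries. In WT the CRH1 libraries overlapped between conditions (-0.07 ± 0.09, adjusted p = 0.495, not called), whereas both deletions were higher with alpha-factor in every library: the responses were 0.75 ± 0.09 (adjusted p = 5.48e-08) in the kar4 deletion and 0.47 ± 0.09 (adjusted p = 0.00026) in the ste12 deletion, with differences from WT of 0.82 ± 0.12 (adjusted p = 2.63e-05) and 0.55 ± 0.12 (adjusted p = 0.00116).

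The exoglucanase genes EXG1 and EXG2, TOS1 (a covalently bound wall protein) and YPS1 (an aspartic protease at the cell surface) rose in WT, and all 4 responses were smaller in the ste12 deletion. EXG1 (YLR300W, chrXII:728955-730301) had 444, 435, 453 and 454 CPM in alpha-factor ste12 deletion libraries, against 312, 295, 292 and 295 CPM in untreated ste12 deletion libraries. It had 1192, 1070.2, 907 and 939 CPM in alpha-factor WT libraries, against 385, 337, 319 and 282 CPM in untreated WT libraries. All WT libraries with alpha-factor were above all ste12 deletion libraries with it, and the difference in response was -1.05 ± 0.10 (adjusted p = 2.81e-08). EXG2 (YDR261C, chrIV:977521-979209) had 329, 329.6, 299 and 292 CPM in alpha-factor kar4 deletion libraries, against 131, 133, 131 and 133 CPM in untreated kar4 deletion libraries. It had 219, 221, 235 and 226 CPM in alpha-factor WT libraries, against 109, 149.7, 135 and 136 CPM in untreated WT libraries. Here the kar4 deletion with alpha-factor was above WT in every library, and the difference in response was 0.48 ± 0.11 (adjusted p = 0.00237). For the ste12 deletion it was -0.56 ± 0.11 (adjusted p = 0.000301), and its own response there (0.20 ± 0.08, adjusted p = 0.0424) was not called in either batch alone (0.257 and 0.137). TOS1 (YBR162C, chrII:563203-564570) had 392, 324, 411 and 438 CPM in alpha-factor ste12 deletion libraries, against 303, 251, 315 and 313 CPM in untreated ste12 deletion libraries. It had 1419, 1272, 1084 and 1261 CPM in alpha-factor WT libraries, against 709.8, 723, 631 and 537 CPM in untreated WT libraries. Untreated TOS1 was lower in every ste12 deletion library than in WT (-1.14 ± 0.11, adjusted p = 3.65e-08), and its response there, 0.41 ± 0.11 (adjusted p = 0.0063), was not called in batch 1 alone (0.359, adjusted p = 0.0592). YPS1 (YLR120C, chrXII:386511-388220) had 299.5, 293, 387 and 420.4 CPM in alpha-factor ste12 deletion libraries, against 252, 223, 366 and 382 CPM in untreated ste12 deletion libraries. It had 995, 962, 895 and 1001 CPM in alpha-factor WT libraries, against 371, 354, 459 and 384 CPM in untreated WT libraries. The ste12 deletion libraries with and without alpha-factor overlapped over both batches together, but within each batch those with it lay above the others. YPS1 was not called there (0.20 ± 0.11, adjusted p = 0.158), though it was in batch 1 alone (0.310, adjusted p = 0.0208). The difference in response was -1.11 ± 0.16 (adjusted p = 7.07e-06). GAS1 (YMR307W), which elongates glucan, fell by 0.66 in WT and not in the ste12 deletion (0.02, difference 0.68 ± 0.10), and BGL2 (YGR282C), a glucan transferase gene, was called in WT (0.24) but not in batch 1 alone (0.141) or without WT alpha-factor replicate 1 or untreated replicate 3 or 4 (0.163 to 0.222).

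**Figure D4:**
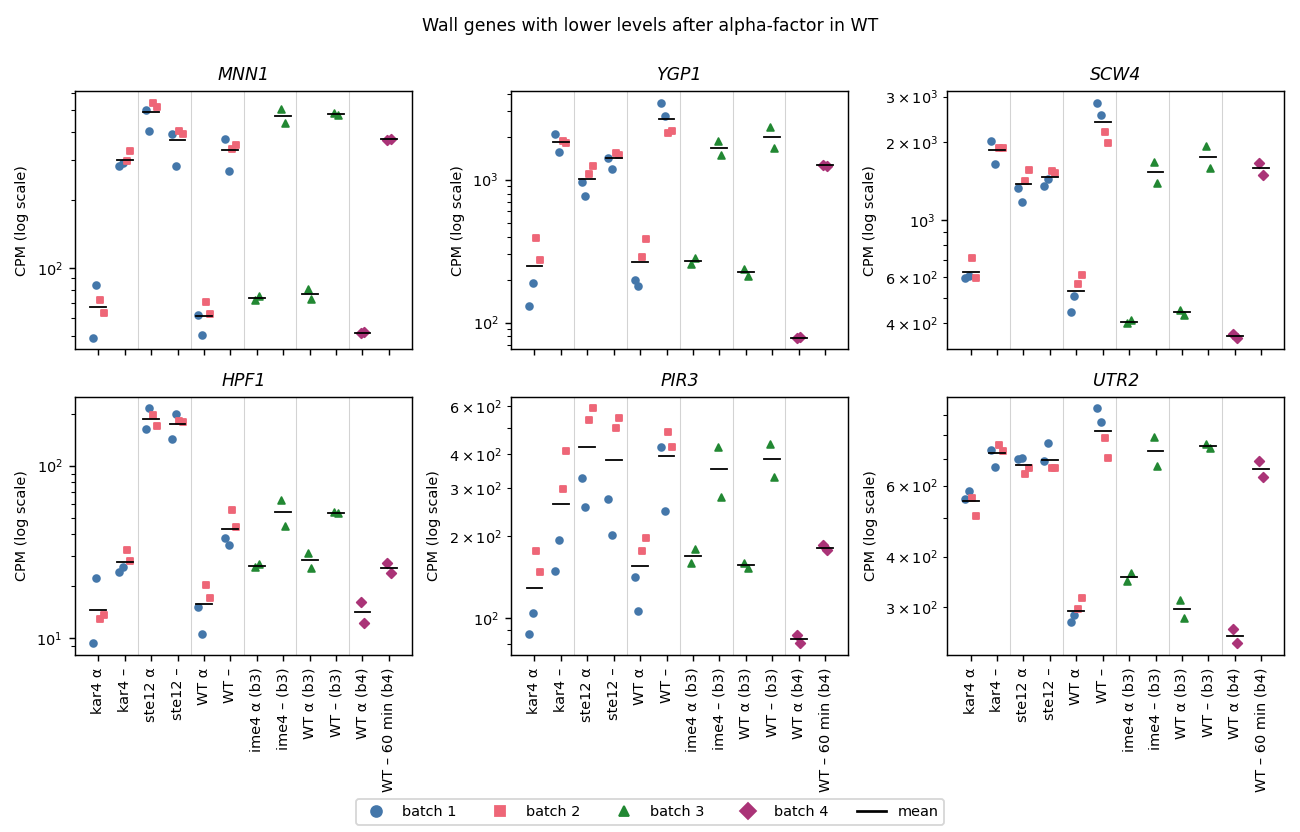
Level in CPM (log scale) of 6 wall genes that fell in WT, in every library of the 12 groups, with alpha-factor (α) left of untreated (–) and batches marked by symbol; black lines are means. WT libraries with alpha-factor lie below the untreated WT libraries of the same batches for all 6 genes. Over both batches together, the ste12 deletion libraries overlap between conditions for all 6. Within each batch, those with alpha-factor lie above the untreated ones for MNN1 and below them for YGP1.

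Pir proteins are wall proteins bound to glucan, and the 4 genes split in WT: PIR1 and CIS3 rose, and HSP150 and PIR3 fell. PIR1 (YKL164C, chrXI:141794-142819) had 325, 191, 478 and 485 CPM in alpha-factor ste12 deletion libraries, against 146, 75.7, 171 and 169 CPM in untreated ste12 deletion libraries. It had 205, 168, 318 and 269 CPM in alpha-factor WT libraries, against 95.9, 85.8, 151 and 125 CPM in untreated WT libraries. PIR1 rose in all 3 strains, by 0.80 ± 0.16 in the kar4 deletion, 1.36 ± 0.15 in the ste12 deletion and 1.06 ± 0.16 in WT, and neither deletion's difference from WT was called, although that of the ste12 deletion was called in batch 2 alone (0.417, adjusted p = 0.0375). The 2 deletions were not compared with each other. CIS3 (YJL158C, chrX:122265-122948) had 909.7, 904, 959.9 and 846 CPM in alpha-factor kar4 deletion libraries, against 261, 269, 358 and 358 CPM in untreated kar4 deletion libraries. It had 433, 276, 598 and 651 CPM in alpha-factor ste12 deletion libraries, against 198, 104, 312 and 297 CPM in untreated ste12 deletion libraries. It had 539, 524, 554 and 607 CPM in alpha-factor WT libraries, against 411, 314, 371 and 365 CPM in untreated WT libraries. The alpha-factor libraries of the kar4 deletion, at 846 to 959.9 CPM, lay above those of every other of the 6 groups. CIS3 responded by 1.57 ± 0.20 (adjusted p = 2.67e-07) in the kar4 deletion, 1.11 ± 0.20 (adjusted p = 2e-04) in the ste12 deletion and 0.60 ± 0.20 (adjusted p = 0.0114) in WT, and the kar4 deletion minus WT difference of 0.97 ± 0.28 (adjusted p = 0.015) was not called when batch was left out of the fit (0.933, adjusted p = 0.0907); the WT rise was not called in batch 1 alone (0.551, adjusted p = 0.0957). HSP150 (YJL159W, chrX:120449-121690) had 2936, 2799.6, 3301 and 3729 CPM in alpha-factor ste12 deletion libraries, against 2979, 3378, 4115 and 4304 CPM in untreated ste12 deletion libraries. It had 2239.7, 1989, 2424 and 2775 CPM in alpha-factor WT libraries, against 4607, 4135, 5493 and 4818 CPM in untreated WT libraries. HSP150 was lower with alpha-factor in every WT library, by a response of -1.02 ± 0.10. PIR3 (YKL163W, chrXI:144401-145378) had 328, 256, 533 and 591 CPM in alpha-factor ste12 deletion libraries, against 274, 202, 499 and 546 CPM in untreated ste12 deletion libraries. It had 142, 106, 176 and 197 CPM in alpha-factor WT libraries, against 424, 248, 482 and 425 CPM in untreated WT libraries. PIR3 responded by -1.37 ± 0.17 in WT. Over both batches together, both genes overlapped between conditions in the ste12 deletion, where neither was called. Within each batch, the HSP150 libraries with alpha-factor lay below the untreated ones there, and the PIR3 libraries overlapped. The HSP150 response there was -0.159 in batch 1 alone and -0.259 in batch 2 alone, called in neither. The differences in response from WT were 0.81 ± 0.13 (adjusted p = 4.54e-05) for HSP150 and 1.56 ± 0.24 (adjusted p = 1.58e-05) for PIR3. PIR1 and PIR3 were lower in batch 1 than in batch 2 in each group of the kar4 and ste12 deletions and of WT.

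The other mannoprotein genes included the largest rise (NCW2) and the largest fall (YGP1) of the 42 genes in WT. NCW2 (YLR194C, chrXII:540809-541573), a GPI protein gene, had 221, 157, 341 and 349 CPM in alpha-factor ste12 deletion libraries, against 150.4, 112, 178 and 206 CPM in untreated ste12 deletion libraries. It had 1497, 1256, 1007 and 1076 CPM in alpha-factor WT libraries, against 176, 210.4, 249 and 179 CPM in untreated WT libraries. The 4 WT libraries with alpha-factor had at least 1007 CPM, and no ste12 deletion library was above 349 CPM. NCW2 responded by 0.71 ± 0.20 (adjusted p = 0.00798) in the ste12 deletion, not called in batch 1 alone (0.514, adjusted p = 0.0553), and by 2.59 ± 0.21 (adjusted p = 1.95e-10) in WT, a difference of -1.88 ± 0.28 (adjusted p = 1.22e-05). In the kar4 deletion NCW2 had 913 to 1140.1 CPM with alpha-factor, against 142 to 220.4 CPM untreated. CWP1 (YKL096W, chrXI:261132-261851), a GPI protein gene, had 42.6, 38.7, 35.1 and 39 CPM in alpha-factor kar4 deletion libraries, against 11.1, 12.2, 11.3 and 13.5 CPM in untreated kar4 deletion libraries. It had 77.9, 60, 82.5 and 77.4 CPM in alpha-factor ste12 deletion libraries, against 34.8, 25.1, 37.8 and 43.7 CPM in untreated ste12 deletion libraries. It had 75.5, 74.2, 84.5 and 73.8 CPM in alpha-factor WT libraries, against 16.2, 12.4, 18 and 14.8 CPM in untreated WT libraries. Untreated, the ste12 deletion was above WT in every library (1.21 ± 0.13, adjusted p = 2.59e-07); with alpha-factor the 2 strains overlapped, and the kar4 deletion was below both. The CWP1 response was 1.68 ± 0.13 (adjusted p = 1.05e-10) in the kar4 deletion, 1.07 ± 0.11 (adjusted p = 2.49e-07) in the ste12 deletion and 2.33 ± 0.13 (adjusted p = 2.62e-13) in WT. Its differences from WT were -0.65 ± 0.19 (adjusted p = 0.0152) for the kar4 deletion, not called in batch 1 alone (-0.621, adjusted p = 0.181), and -1.26 ± 0.17 (adjusted p = 3.45e-06) for the ste12 deletion.

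YGP1, a secreted glycoprotein gene, and HPF1, a mannoprotein gene, fell in WT, as did MNN1, the gene of the mannosyltransferase that adds the outermost mannose. YGP1 (YNL160W, chrXIV:336545-337609) had 969.5, 767, 1095 and 1238 CPM in alpha-factor ste12 deletion libraries, against 1426, 1193, 1528 and 1497 CPM in untreated ste12 deletion libraries. It had 199, 181, 289 and 385 CPM in alpha-factor WT libraries, against 3445, 2801, 2133 and 2189.9 CPM in untreated WT libraries. The ste12 deletion libraries lay between the 2 WT groups, and the YGP1 response was -0.48 ± 0.23 (adjusted p = 0.102) in the ste12 deletion (not called) against -3.40 ± 0.25 (adjusted p = 5.11e-11) in WT, a difference of 2.91 ± 0.33 (adjusted p = 2.38e-07). The YGP1 response of the ste12 deletion was called in batch 1 alone (-0.604, adjusted p = 0.0457) and not in batch 2 alone (-0.374). HPF1 (YOL155C, chrXV:28703-31606) had 163, 215, 197 and 170.5 CPM in alpha-factor ste12 deletion libraries, against 143, 199, 180.3 and 179 CPM in untreated ste12 deletion libraries. It had 15.2, 10.6, 20.3 and 17 CPM in alpha-factor WT libraries, against 38.3, 34.6, 55.6 and 44.1 CPM in untreated WT libraries. The ste12 deletion was above WT in every library under both conditions, by 3.56 ± 0.19 (adjusted p = 1.19e-13) with alpha-factor and 2.02 ± 0.17 (adjusted p = 4.02e-09) untreated. HPF1 responded by 0.09 ± 0.16 (adjusted p = 0.683) in the ste12 deletion (not called) and -1.45 ± 0.19 (adjusted p = 9.68e-07) in WT. MNN1 (YER001W, chrV:153520-155808) had 499.6, 406, 539.7 and 517 CPM in alpha-factor ste12 deletion libraries, against 391, 282, 407 and 391 CPM in untreated ste12 deletion libraries. It had 62, 50.3, 70.9 and 62.6 CPM in alpha-factor WT libraries, against 375, 269, 338 and 352 CPM in untreated WT libraries. With alpha-factor, every ste12 deletion library was above every WT library, a difference of 3.00 ± 0.14 (adjusted p = 6.01e-15), while the untreated groups overlapped (0.14 ± 0.12, not called). MNN1 rose slightly in the ste12 deletion (0.42 ± 0.12, adjusted p = 0.013), a call that was lost without untreated replicate 2 (0.319, adjusted p = 0.0608) and in batch 1 alone (0.416, adjusted p = 0.188), against -2.44 ± 0.14 (adjusted p = 2.8e-13) in WT. In the kar4 deletion, YGP1 had 131 to 391 CPM with alpha-factor, against 1568 to 2091 CPM untreated, and MNN1 had 49 to 84 CPM with alpha-factor, against 282 to 329 CPM untreated. Of the abundant GPI protein genes, SED1 (YDR077W) fell in WT (-0.49 ± 0.12, adjusted p = 0.00179), though not in batch 2 alone (-0.315, adjusted p = 0.102), and CWP2 (YKL096W-A) and CCW12 (YLR110C) were not called (0.02 and -0.14). The mannoprotein gene CCW14 was called higher in WT. That call was lost in batch 1 alone (0.098), with library totals (0.068) and with batch left out of the fit (0.226). It was also lost without WT alpha-factor replicate 4 or untreated replicate 3 or 4 (0.181 to 0.206).

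Per kb of coding length, SED1 was highest of the 42 genes, at 6843 ± 615 CPM per kb in alpha-factor ste12 deletion libraries, 5547 ± 562 in alpha-factor WT libraries and 7772 ± 1017 in untreated WT libraries (SD, n = 4 each). CCW12 came second in those WT groups (5058 ± 732 and 5594 ± 1224), and with alpha-factor its mean was less than 1 SD from that of SED1. The lowest in untreated WT were CHS2 (10.1 ± 0.801), HPF1 (14.9 ± 3.16) and CWP1 (21.3 ± 3.28). The 5 highest genes made up 57% of the summed level with alpha-factor, against 66% untreated, in WT. NCW2 stood 6th of 42 with alpha-factor, against 19th untreated, and YGP1 stood 24th with alpha-factor, against 5th untreated.

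Against WT under the same condition, the kar4 deletion had 12 lower and 0 higher wall genes when untreated, against 6.12% lower, 5.84% higher and 12% called of all features. The median was -0.20 for the wall genes and 0.00 for all features, and the 12 were WSC3 (YOL105C), CHS2, KRE6, GAS1, CRH1, SCW4, PIR1, HSP150, PIR3, SED1, CCW14 (YLR390W-A) and HPF1, at log2 fold changes between -0.68 and -0.25. This count depended on the batch term and on single libraries: it was 1 with batch left out of the fit, 10 in batch 1 alone, 3 in batch 2 alone, 6 without kar4 deletion untreated replicate 2 and 7 without WT untreated replicate 1. The kar4 deletion and WT libraries did not overlap for 6 of the 42 genes, against 10.8% of all features. With alpha-factor, 21 genes were called (37.9% of all features), 7 higher (16.8%) and 14 lower (21.1%), with 13 in batch 1 alone and 18 in batch 2 alone; with library totals 4 were higher and 15 lower. CWP1 (-0.98 ± 0.12) and UTR2 (0.90 ± 0.08) had the largest differences in the 2 directions, and no call reached 2-fold (2.47% higher and 1.92% lower of all features).

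The ste12 deletion differed from WT in 24 wall genes when untreated (22.5% of all features), 4 higher (10.6%) and 20 lower (11.9%), with 22 in batch 1 alone and 16 in batch 2 alone. With library totals in place of TMM the split was 13 higher and 11 lower, and the median of all features was 0.21. HPF1 and CWP1 were more than 2-fold higher (0.519% of all features), and WSC2, TOS1 and SCW10 more than 2-fold lower (2.01%). With alpha-factor, 33 genes differed (59.1% of all features), 15 higher (30.9%) and 18 lower (28.2%), with 30 in batch 1 alone and 28 in batch 2 alone; with library totals 21 were higher and 15 lower, and the median of all features was 0.36. Of the 42 genes, 12 were at least 2-fold lower and 6 at least 2-fold higher, against 6.52% and 2.95% of all features. HPF1 (3.56), MNN1 (3.00), YGP1 (1.97), PIR3 (1.42), SCW4 (1.36) and UTR2 (1.20) were the 6 higher ones, and WSC2 (-3.06) and FKS2 (-2.85) led the lower ones. The libraries of the 2 strains did not overlap for 30 of the 42 genes with alpha-factor, against 43.1% of all features.

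**Figure D5:**
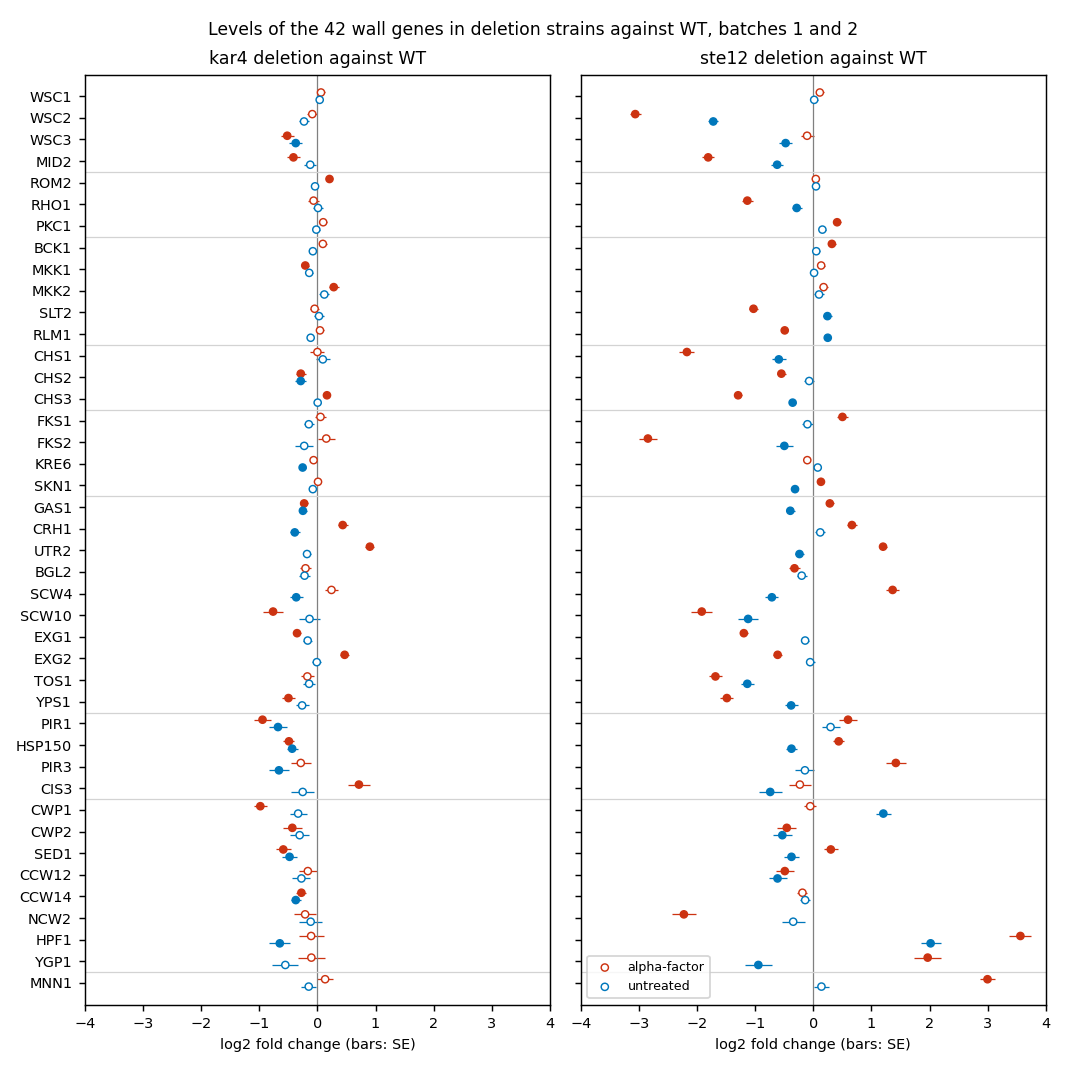
Log2 fold change (x axis) of each wall gene (rows) in the kar4 deletion against WT (left) and the ste12 deletion against WT (right), with alpha-factor and untreated, 4 libraries per group; bars are standard errors and filled points were called. In the kar4 deletion the values lie between -0.98 and 0.90, and in the ste12 deletion between -3.06 and 3.56.

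IME4 encodes an mRNA methyltransferase known from yeast meiosis. In batch 3, 32 wall genes were called for the alpha-factor response in the ime4 deletion (55.5% of all features; 23 higher, 27.6%, and 9 lower, 27.9%) and 30 in WT (55.1%; 19 higher, 27.4%, and 11 lower, 27.7%). Of the genes called in WT of batches 1 and 2, 18 of 21 rose and 10 of 13 fell in WT of batch 3 as well, against 78.5% and 75.3% of all features so called. By at least 2-fold, 13 were higher (7.99%) and 6 lower (4.58%) in the ime4 deletion, and 11 higher (7.83%) and 5 lower (2.84%) in WT. With library totals the ime4 deletion response split into 19 higher and 14 lower, and that of WT into 17 higher and 15 lower. The response of the ime4 deletion differed from that of WT for 0 of the 42 genes by edgeR's quasi-likelihood test at the adjusted threshold, with 3 genes at an unadjusted p under 0.05 and 0 by DESeq2, against 0.0162% of all features called. Between the strains, 0 wall genes were called with alpha-factor (3 at an unadjusted p under 0.05, 1 by DESeq2, and 0.227% of all features called by edgeR) and 0 untreated (2 at an unadjusted p under 0.05, 0 by DESeq2 and 0.0325% of all features). SLT2 had 478 and 488 CPM with alpha-factor and 202 and 182 CPM untreated in the ime4 deletion, and 451 and 439 CPM with alpha-factor and 143 and 169 CPM untreated in WT of batch 3. FKS2 had 3019 and 3219.8 CPM with alpha-factor and 709 and 691 CPM untreated in the ime4 deletion, and 3138 and 2806 CPM with alpha-factor and 483 and 661 CPM untreated in WT. The alpha-factor libraries of both strains were above all untreated ones for both genes. With 2 libraries per group, a p that misses the threshold does not show that the strains were alike; WSC3 had the largest response difference (0.57 ± 0.15, adjusted p = 0.605).

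In batch 4 the untreated WT cells were collected after the same 60 min as the treated ones. There 32 wall genes were called (57.8% of all features), 23 higher (28.9%) and 9 lower (28.9%), and 21 of the 21 genes that rose and 9 of the 13 that fell in WT of batches 1 and 2 did so, against 73.6% and 68.3% of all features so called. By at least 2-fold, 12 were higher (7.81%) and 5 lower (3.19%). FKS2 had 2979 and 2724 CPM with alpha-factor, against 289 and 297 CPM without, CWP1 had 148 and 138 CPM with alpha-factor, against 15.1 and 10.4 CPM without, and YGP1 had 78.3 and 78.6 CPM with alpha-factor, against 1269 and 1246 CPM without. None of these 3 pairs of groups overlapped. With 2 libraries per group such separation is common by chance, and its share over all features was not counted. The response differed from that of batches 1 and 2 for 4 genes (16.5% of all features), with 3 positive (8.84%) and 1 negative (7.69%): CWP1 (1.16 ± 0.26, adjusted p = 0.00222), FKS2 (0.77 ± 0.24, adjusted p = 0.0298), ROM2 (0.40 ± 0.08, adjusted p = 0.000541) and EXG1 (-0.40 ± 0.13, adjusted p = 0.029). FKS2 was not called without WT untreated replicate 3, WT alpha-factor replicate 3 or 4, or any 1 library of batch 4 (0.652 to 0.831), and EXG1 was not called without WT untreated replicate 2 or 4 or without either untreated library or alpha-factor replicate 2 of batch 4 (-0.408 to -0.335). With library totals, 3 differences were positive and 0 negative. The time of the untreated collection and the batch cannot be told apart.

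A further 63 wall genes were listed by function, with earlier results of these data known. Among them were other sensors, Rho1 regulators, chitin and glucan factors, GPI proteins and mannosyltransferases. In WT of batches 1 and 2, 48 of the 63 were called (59% of all features), 26 higher and 22 lower, with a median log2 fold change of 0.08. In the ste12 deletion 31 were called, 23 higher and 8 lower (32.2% of all features were called), and in the kar4 deletion 45, 30 higher and 15 lower (65.9%). The response differed from WT for 35 of the 63 in the ste12 deletion (16 more positive, 19 less; 35.9% of all features differed) and for 19 in the kar4 deletion (13 more positive, 6 less; 18.9%). MSG5, which encodes a phosphatase of the pheromone and Slt2 MAP kinases, averaged 75.7 ± 3.99 CPM in alpha-factor ste12 deletion libraries and 345 ± 14.4 CPM in alpha-factor WT libraries, where it rose by 2.39 ± 0.07 over untreated ones. The mannosyltransferase gene KTR2 rose by 2.21 ± 0.12 in WT and the sporulation wall gene CRR1 by 2.19 ± 0.21, and NCA3, of the SUN family, had a log2 fold change of -2.85 ± 0.13. NCA3 averaged 212 ± 46.8 CPM in alpha-factor ste12 deletion libraries and 28.4 ± 6.85 CPM in alpha-factor WT libraries (SD, n = 4 each).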

How the data were processed

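Total RNA, extracted with hot acid phenol and depleted of rRNA, was sequenced; the table's 44 columns, 1 per labelled sample, were analysed as 36 libraries after the averaging given below. The submitters' processing notes name STAR, featureCounts and sacCer3; versions, the annotation and the strand setting of the counting are not given in the sources used here. The authors' deposited table holds expected counts, estimated read counts that need not be whole (24.5% of values are), for 7127 features. No wall gene had whole counts in every library, so reads shared with related genes may have been split. The counts were rounded to whole numbers. In batch 3, the 8 pairs of columns that differed by less than sampling noise were averaged. Their chi-square per degree of freedom was 0.444 to 0.701, against 5.29 to 73.2 for other replicate pairs within a batch. Features were filtered (edgeR's filterByExpr, count minimum 10, total minimum 15), scaled by TMM and tested with edgeR 4.0.16 (quasi-likelihood, R 4.3.3, limma 3.58.1), with Benjamini-Hochberg adjustment over all features tested, for batches 1 and 2 (24 libraries, batch as a term), batch 3 (8), batch 4 (4) and all 36 together for the comparison with batch 4. On simulated counts for the WT response of batches 1 and 2, the fit was run and recovered the changed genes. Those counts had the same spread for every gene and no batch effect. They therefore do not show how well the fit does on these libraries. DESeq2 1.42.0 and other settings served as alternatives. CPM values on the TMM scale of all 36 libraries and coding lengths from R64 gave the levels; 6047 feature ids matched that annotation and 1080 did not.

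The 42 genes, the other wall genes and the marker lists were chosen with earlier results of these data known. Values in every library are given for genes called with at least a 2-fold change (log2 of 1) in the WT response, the ste12 deletion response, a response difference or batch 4; RHO1, FKS1, CRH1 and EXG2 were added after their values were seen. Outside the 42 genes, the named ones are the label checks, FUS1, the marker genes SAG1 and STE3, and the other wall genes called with at least a 4-fold change in WT. The libraries of the kar4 and ste12 deletions and WT entered 1 fit, and the comparisons share them.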

Additional observations from a re-analysis of the deposited data

Results flagged for a closer look

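In 9 of 252 sets of 4 libraries, 1 library stood apart from the other 3 by Dixon's ratio test. Chance gives about 1 in 20 where all 4 libraries are drawn alike. Each set held 2 libraries from batch 1 and 2 from batch 2, so the 9 sets cannot be set against that rate. CHS1 had 375 CPM in untreated WT replicate 3, against 288 to 296 CPM in the other 3. CWP1 had 84.5 CPM in alpha-factor WT replicate 3, KRE6 had 604 CPM in alpha-factor WT replicate 1, WSC1 had 142 CPM in alpha-factor WT replicate 4 and PKC1 had 231 CPM in untreated WT replicate 2, each above the other 3. MNN1 had 282 CPM in untreated ste12 deletion replicate 2, against 391 to 407 CPM in the other 3, and EXG1 had 312 CPM in untreated ste12 deletion replicate 1, above the other 3. SCW10 had 1047 CPM in untreated kar4 deletion replicate 2, against 1297 to 1337 CPM in the other 3, and SCW4 had 711 CPM in alpha-factor kar4 deletion replicate 3, against 598 to 608 CPM. The cause was not tested.

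Responses to alpha-factor that differed between strains at the threshold are listed as the deletion minus WT (log2, edgeR's interaction term). For the kar4 deletion these were UTR2 (1.08), CIS3 (0.97), CRH1 (0.82), SCW4 (0.61), EXG2 (0.48), ROM2 (0.25) and CWP1 (-0.65). The ROM2 call was lost in batch 1 alone (0.337, adjusted p = 0.0570), in batch 2 alone (0.172, adjusted p = 0.244), with library totals (0.194, adjusted p = 0.264) and with no batch term (0.251, adjusted p = 0.0702). For the ste12 deletion the negative differences were FKS2 (-2.35), NCW2 (-1.88), CHS1 (-1.58), WSC2 (-1.34), SLT2 (-1.27), CWP1 (-1.26), MID2 (-1.19), YPS1 (-1.11), EXG1 (-1.05), CHS3 (-0.94), RHO1 (-0.85), SCW10 (-0.80), RLM1 (-0.74), EXG2 (-0.56), TOS1 (-0.55) and CHS2 (-0.48). The positive ones were YGP1 (2.91), MNN1 (2.86), SCW4 (2.08), PIR3 (1.56), HPF1 (1.54), UTR2 (1.44), HSP150 (0.81), GAS1 (0.68), SED1 (0.68), FKS1 (0.60), CRH1 (0.55), SKN1 (0.45), BCK1 (0.27) and PKC1 (0.25). Of these, SED1 was not called in batch 1 alone (0.788) or batch 2 alone (0.541). PKC1 was not called in either batch alone (0.292 and 0.209), with no batch term (0.255), in a fit of the compared groups only (0.252) or on leaving out any 1 of 7 libraries (0.182 to 0.240). BCK1 was not called in batch 2 alone (0.204) or without ste12 deletion alpha-factor replicate 1, ste12 deletion untreated replicate 3 or WT untreated replicate 4 (0.219 to 0.236). Between batch 4 and batches 1 and 2, the WT response differed for CWP1 (1.16), FKS2 (0.77), ROM2 (0.40) and EXG1 (-0.40).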

How the results depend on the processing

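Over all 42 genes and comparisons, 4978 of 5292 values under other settings kept their direction and their side of the threshold, 178 were no longer called, 128 became called and 8 reversed; of 5376 values with 1 library left out, 5169 kept both, 176 were no longer called, 31 became called and 0 reversed. The 8 that reversed did so with library totals in place of TMM, which shifts every gene alike: ROM2 in the kar4 deletion response (-0.019), KRE6 (0.230), BGL2 (0.009) and CWP1 (0.274) in the ste12 deletion against WT with alpha-factor, and ROM2 (-0.063), PKC1 (-0.281), BCK1 (-0.263) and MKK1 (-0.046) in the ime4 deletion response. The count for the untreated kar4 deletion against WT (12) was 1 with no batch term, 3 in batch 2 alone, 7 from a fit of the compared groups only and 6 to 12 with 1 library left out. With alpha-factor the kar4 deletion count (21) was 13 in batch 1 alone. For the ime4 deletion against WT, treating the 16 columns as separate gave 6 genes for the response, 4 untreated and 8 with alpha-factor in place of 0, a setting that counts averaged pairs as replicates; DESeq2, and a fit of the compared groups only, each gave 1 with alpha-factor. The count for batch 4 against batches 1 and 2 (4) was 2 to 5 with 1 library left out, with 2 without alpha-factor replicate 2 or either untreated replicate of batch 4. The cause was not tested.

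Replicate numbers are shared between groups. Same-numbered libraries deviated together in some pairs and not in others (correlations of -0.333 to 0.441). Whether they came from shared cultures cannot be told from this, and the main fit did not pair them. With the replicate number as a block, 34 genes were called for the WT response, 34 for the kar4 deletion, 18 for the ste12 deletion, 7 and 30 for the differences from WT, 31 for WT of batch 3, 33 for the ime4 deletion and 35 in batch 4. With the ime4 deletion numbers exchanged, the block gave 35 for WT of batch 3 and 34 for the ime4 deletion. Batches 3 and 4 had 2 libraries per group.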
